A study of Mus musculus with 6 samples.

Results

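The genes described are 7 that make or sense prostaglandins, taken by symbol from the 31053 genes counted in every library: Ptgds and Hpgds, Ptgs1 and Ptgs2, Ptges, Ptgis and Ptger4. All 7 symbols were found, each as a single protein-coding gene, and they are called the members below. Prostaglandins are short-range lipid signals. The cyclooxygenases Ptgs1 and Ptgs2 turn arachidonic acid, released from membranes by phospholipases, into the common precursor prostaglandin H2, and a terminal synthase then sets the product: Ptgds and Hpgds give prostaglandin D2, Ptges gives prostaglandin E2 and Ptgis gives prostacyclin. Ptgds is also a secreted lipocalin of cerebrospinal fluid and a known product of leptomeningeal cells, whereas Ptgs2 is an immediate-early gene that many cells switch on within a short time of injury or cytokine exposure. Ptger4 is a receptor for prostaglandin E2.

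The cells came from wild-type adult C57BL6 mice in 2 preparations, and several mice were pooled in each library. The 4 cortical surface-associated libraries held cells freed enzymatically from the outer face of the cortex with its leptomeninges, and the 2 bone-associated libraries held cells of the dura and connective tissue attached to the skull. Viable cells were sorted and captured with the 10x Genomics Chromium system, which counts mRNA molecules per cell as unique molecular identifiers (UMIs). Neither preparation had a treatment or a genetic change, the mice were not perfused, so blood cells are present in both, and the animals behind each value cannot be separated, so the library is the replicate. For the dissociation, the labels describe papain and the ventricular-subventricular zone, while the methods of the study describe collagenase and dispase.

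The libraries held 951 to 5602 barcodes and 8408685 to 56169736 UMIs each, and 8680 cells passed the filters, of which 7239 fell into classes named by marker genes. Hemoglobin UMIs made up 84.6% and 71.9% of cortical surface libraries 3 and 4, against 0.0908 to 0.520% in the other 4. Some results that depend on those 2 libraries are also given without them, but member calls in T cell-like cells are given with them. Neutrophil- and B cell-like cells allow no such check, because their cortical surface side consists of these libraries alone. The same holds for cortical surface choroid plexus-like cells. No pair of libraries shared more than 9 barcodes. In each class used below, between 5 of 9 (dendritic-like cells of the cortical surface) and all of the defining markers were found in at least 10% of the cells, and none was at 0 except Pmp2 in bone-associated Schwann-like cells. All levels are CPM, that is UMIs of a gene scaled to 1000000 UMIs, summed over the cells of a class in a library, for libraries with at least 10 such cells. A summed level cannot tell fewer expressing cells from less RNA per cell, so shares of cells are given beside the main ones.

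All positions are on the mouse build GRCm38 (mm10), and each gene body spans the exons and introns of the annotated gene. Ptgds (ENSMUSG00000015090) lies on the minus strand at chr2:25466709-25470046, Ptges (ENSMUSG00000050737) on the same strand at chr2:30889471-30929863 and Ptgis (ENSMUSG00000017969), also on the minus strand, at chr2:167191805-167240604. Ptgs1 (ENSMUSG00000047250) lies on the plus strand at chr2:36230426-36252272, so 4 of the 7 genes are on chromosome 2. Hpgds (ENSMUSG00000029919) lies on the minus strand at chr6:65117293-65144908, Ptgs2 (ENSMUSG00000032487) on the plus strand at chr1:150100031-150108227 and Ptger4 (ENSMUSG00000039942) on the minus strand at chr15:5206661-5244187. On the opposite strand, Gm14291 overlaps Ptgis and Ttc33 overlaps Ptger4.

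The start regions of 2 genes are shown: that of Ptgds, whose level differed most between classes, and that of Ptgs2, which is known for fast induction. RefSeq windows of 300 bases (250 before and 50 after the start, GRCm38.p6) were at hand for 6 of the 7 genes and were searched on both strands for TATAAA (the TATA box), CACGTG (an E-box) and TGACG (the core of the cAMP response element). These letters occurred in 14.2%, 7.24% and 21.0% of 27025 mouse windows. The first line gives the 250 bases before the RefSeq start of Ptgds (chr2:25469750-25469999, minus strand), with no match to the 3 motifs. These bases lie inside the gene body given above, whose annotation places the start of Ptgds further upstream. The second gives 30 bases just after the Ptgs2 start (chr1:150100034-150100063, plus strand), with the overlapping core, read on the other strand, and E-box in capitals.
Ptgds, upstream: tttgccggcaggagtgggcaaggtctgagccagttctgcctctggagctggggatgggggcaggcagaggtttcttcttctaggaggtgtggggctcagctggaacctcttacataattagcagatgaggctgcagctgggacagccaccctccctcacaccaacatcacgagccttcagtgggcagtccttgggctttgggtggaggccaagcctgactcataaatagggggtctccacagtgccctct
Ptgs2, after the start: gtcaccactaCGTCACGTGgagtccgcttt
In Ptgs2 the core began 14 and the E-box 17 bases after the start, and the windows of the other 5 genes held none of the 3 motifs. A match of letters is a description only.

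Each gene had its own distribution over the classes, as the plot of mean levels shows. Ptgds was highest in cortical surface mesenchymal-like cells, Hpgds and Ptgs1 in microglia-like cells, Ptges in mesenchymal-like cells of both preparations and Ptgis in cortical surface vascular smooth muscle cell (VSMC)-like cells, among the named classes. Ptgs2 was highest in bone-associated libraries, in neutrophil-, endothelial- and pericyte-like cells, and Ptger4 in dendritic-like cells.

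**Figure D1:**
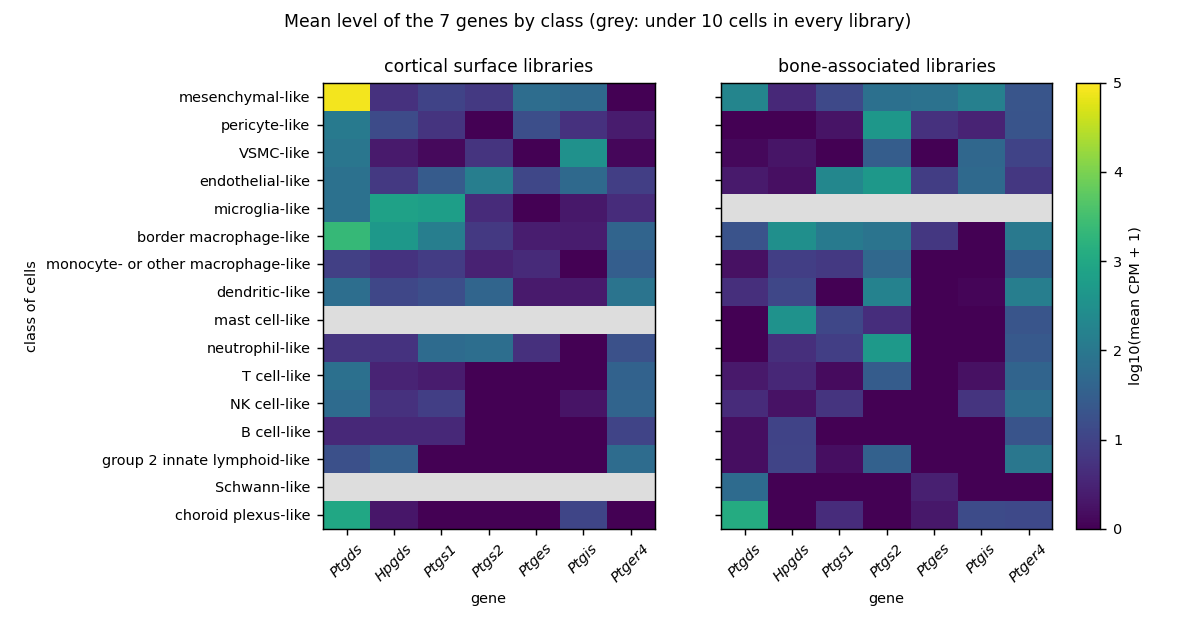
Mean level of the 7 genes in the named classes drawn (rows) for the cortical surface (left) and bone-associated (right) libraries. Colour is log10 of the mean CPM plus 1, and grey marks classes under 10 cells in every library. Erythroid-, astrocyte-, oligodendrocyte- and oligodendrocyte precursor-like cells are not drawn. Ptgds in cortical surface mesenchymal-like cells, with a mean of 83514 CPM, is the brightest square of the map.

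Ptgds separated the mesenchymal-like cells of the preparations more than any other of the 7 genes. These cells, which carry Dcn, Col1a2 and Lum, are leptomeningeal on the cortical surface and dural in the bone-associated libraries. In cortical surface libraries 1 to 4 Ptgds stood at 75617, 88395, 60159 and 109886 CPM (mean 83514 ± 21033, SD, n = 4), and in bone-associated libraries 1 and 2 at 1.88 and 377 CPM. The groups did not overlap, and the lowest cortical surface library was far above the highest bone-associated one. Ptgds was higher on the cortical surface (log2 fold change 8.73, SE 1.12, adjusted p = 1.00e-06, edgeR's quasi-likelihood test with Benjamini-Hochberg adjustment). In this comparison 3 of the 5 members tested passed the threshold of adjusted p and fold change, against 15.1% of all genes tested. Among these calls, Ptgds passed the 10% detection filter through the cortical surface side only, and Ptgs2 through the bone-associated side only. The directions of both are therefore not independent of the filter.

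Within single leptomeningeal cells Ptgds was a large part of the whole transcriptome. The median cell gave 6.49%, 8.36%, 5.67% and 11.1% of its UMIs to Ptgds in cortical surface libraries 1 to 4, and the highest cell 36.2%. A Ptgds UMI was found in 93.1 to 100% of these cells. In bone-associated library 2, by contrast, a single cell held 1366 of the 1402 Ptgds UMIs of the class (97.4%), and Ptgds made up 9.95% of that cell's 13735 UMIs, within the cortical surface range. The other cells of that library stood at 9.73 CPM, with a Ptgds UMI in 10 of them. After thinning every cell to 1500 UMIs, 95.6% (95% exact binomial interval 92.3 to 97.8%) of cortical surface and 1.08% (0.222 to 3.11%) of bone-associated mesenchymal-like cells kept a Ptgds UMI. Before thinning the shares were 98.1% and 4.26%, at median depths of 7620 and 14702.5 UMIs. Intervals here and below cover counting error only.

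Other classes also held Ptgds, at levels that moved with the library, as the plot of Ptgds by library shows. T cell-like cells, which are not known to make Ptgds, serve as the measure of free RNA. Their level was 106, 120, 29.3 and 15.7 CPM in cortical surface libraries 1 to 4 and 1.11 and 1.29 CPM in the bone-associated ones. The first 2 cortical surface libraries were above the other 2, and every cortical surface library was above both bone-associated ones (log2 fold change 5.02, SE 0.94, adjusted p = 0.00345; adjusted p = 0.0518 without bone-associated library 2). In T cell-like cells 1 of 2 members tested passed, against 8.61% of all genes. Summed over T, NK and B cell-like cells, the level was 113 (95% exact Poisson interval 78.2 to 158), 124 (88.8 to 169), 18.5 (11.7 to 27.8) and 10.4 (6.59 to 15.6) CPM in cortical surface libraries 1 to 4. It was 1.5 (0.309 to 4.38) and 0.996 (0.271 to 2.55) CPM in bone-associated libraries 1 and 2, where 3 and 4 UMIs were counted. In cortical surface libraries 3 and 4, T cell-like cells held 22 of 23 and 20 of 23 of the summed UMIs. NK cell-like cells stood at 3.62 and 1.72 CPM there and B cell-like cells at 0 and 5.51 CPM, so the lymphoid level of these libraries is mostly that of T cell-like cells. Neutrophil-like cells stood at 5.10 and 4.37 CPM in cortical surface libraries 3 and 4 (1 and 3 UMIs) and had no Ptgds UMI in the bone-associated libraries.

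**Figure D2:**
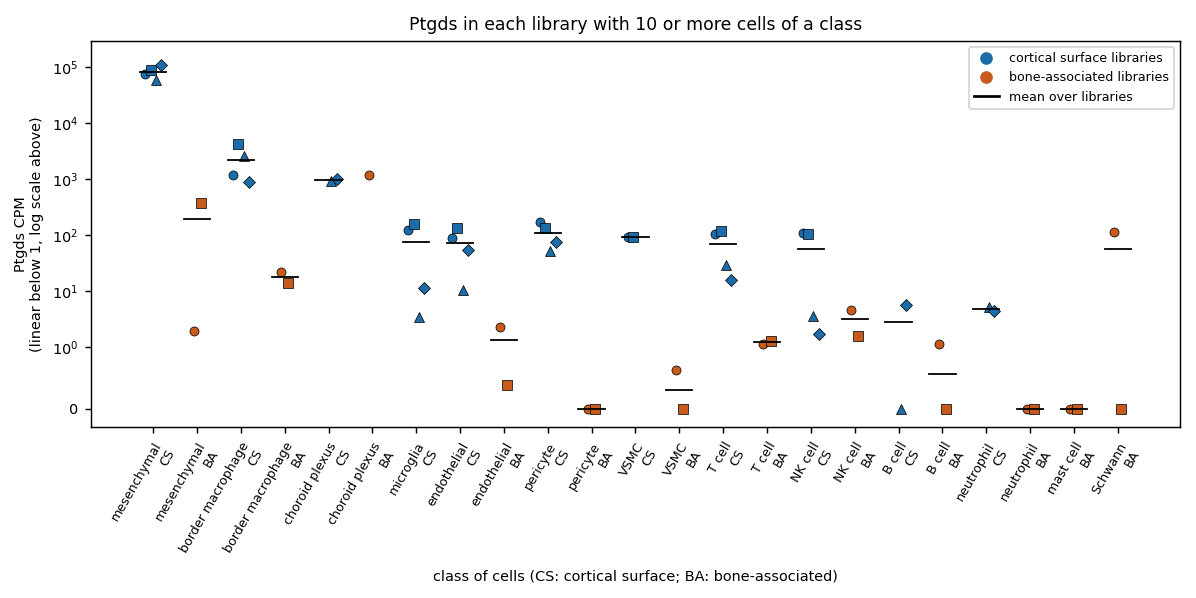
Ptgds CPM in each library with at least 10 cells of a class, by class of cells and preparation; the y axis is linear below 1 CPM and logarithmic above, each point is 1 library and each line the mean over libraries. The cortical surface mesenchymal-like points lie between 60159 and 109886 CPM, and the T cell-like ones between 15.7 and 120 CPM.

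Vascular classes were set against that lymphoid level, library by library. In cortical surface libraries 1 and 2 the 95% intervals of the ratio included 1 for pericyte-, endothelial- and VSMC-like cells. Pericyte-like cells were above it in library 3 (ratio 2.78, interval 1.07 to 6.44) and in library 4 (7.30, 4.08 to 13.2), and endothelial-like cells in library 4 (5.18, 3.09 to 8.90). Pericyte-like cells stood at 170, 133, 51.5 and 75.8 CPM in cortical surface libraries 1 to 4 and at 0 UMIs in both bone-associated libraries, which is at least 65.1-fold lower against a floor of 3 counts over the bone-associated group. Endothelial-like cells stood at 89.2, 132, 10.6 and 53.8 CPM on the cortical surface and at 2.28 and 0.386 CPM in the bone-associated libraries (log2 fold change 6.08, SE 0.75, adjusted p = 1.89e-05). VSMC-like cells, present in cortical surface libraries 1 and 2, stood at 91.6 and 92.6 CPM there and at 0.618 and 0 CPM in the bone-associated libraries (log2 fold change 7.82, SE 0.55, adjusted p = 1.45e-11). These differences between preparations ran the same way as those in T cell-like cells. In all of these classes, however, Ptgds passed the 10% detection filter through the cortical surface side only. The shared direction is therefore not independent of the filter, and the source of this Ptgds was not tested. In the test of pericyte- against VSMC-like cells of the same libraries, Ptgds did not pass (log2 fold change 0.29, SE 0.27, adjusted p = 0.487). Microglia-like cells stood at 121, 160, 3.36 and 11.4 CPM, again high in libraries 1 and 2, and in library 3 below the lymphoid level (ratio 0.181, 0.0348 to 0.599). That level came mostly from T cell-like cells in library 3, where NK cell-like cells stood at 3.62 CPM.

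Border macrophage-like cells, the resident phagocytes of the brain's coverings marked by Mrc1, Pf4 and Stab1, held more. Ptgds stood at 1198, 4210, 2593 and 881 CPM in cortical surface libraries 1 to 4, and at 21.9 and 13.9 CPM in the bone-associated libraries. Each cortical surface value was 10.6, 33.9, 140 and 84.8 times the lymphoid level of its own library. The bone-associated values were 14.6 (interval 2.84 to 94.1) and 13.9 (4.59 to 56.6) times that of their own libraries. These ratios rest on 5 and 18 Ptgds UMIs in the macrophages and on 3 and 4 in the lymphoid cells. The excess over the lymphoid level was thus present in both preparations, but was not particular to this class. An unnamed cortical surface cluster led by H2-Eb1 stood at 2.84, 4.28, 9.42 and 21.4 times that level in libraries 1 to 4. Dendritic-like cells stood at 0.831, 0.507, 4.11 and 2.10 times in these libraries, and at 1.70 and 4.87 times in the bone-associated ones. Ptgds was higher in border macrophage-like than in microglia-like cells of the same libraries (log2 fold change 5.60, SE 0.36, adjusted p = 1.71e-12) and higher in cortical surface than in bone-associated border macrophage-like cells (log2 fold change 6.92, SE 0.82, adjusted p = 5.59e-04). Of the members tested, 3 of 4 passed in the first comparison, against 16.6% of all genes, and 3 of 5 in the second, against 6.48%. In the second comparison Ptgds passed the 10% detection filter through the cortical surface side only. Its direction there is therefore not independent of the filter.

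The UMIs were spread unevenly over these macrophages. The tenth of the cells with the most Ptgds UMIs held 57.9%, 89.5%, 87.6% and 74.8% of the Ptgds UMIs of the class in cortical surface libraries 1 to 4, and in library 3 a single cell held 49.5%. The median macrophage gave 0.0404%, 0.0343%, 0.0276% and 0% of its UMIs to Ptgds, far below the leptomeningeal medians. All 3 clusters of the class held Ptgds: the cluster led by Ccl7, Ccl2 and Hmox1, found in libraries 1 and 2, stood at 1244 and 4602 CPM, the low-UMI cluster led by Chp2, Pf4 and Cbr2 at 525 to 1989 CPM, and the cluster led by Lyve1, Stab1 and Ms4a7 at 570 to 1587 CPM. Thinned to 1500 UMIs, 45.8% (41.9 to 49.8%) of cortical surface border macrophage-like cells kept a Ptgds UMI, against 4.92% (2.94 to 7.66%) of T cell-like and 7.03% (5.23 to 9.21%) of microglia-like cells. The unthinned shares were 75.2%, 14.7% and 19.8%, at median depths of 8206, 6001 and 6428 UMIs.

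A ratio within each library gave a further view of that signal. Ptgds UMIs were set against those of 7 reference genes that leptomeningeal cells also express (Apod, Dcn, Igf2, Igfbp2, Mgp, Col1a2 and Col3a1). In cortical surface mesenchymal-like cells Ptgds made up 76.9%, 79.2%, 75.3% and 77.7% of the Ptgds and reference UMIs. The share was 83.8%, 78.4%, 80.3% and 91.9% in border macrophage-like cells and 73.9%, 66.7%, 71.9% and 67.6% in T, NK and B cell-like cells together. The interval of the macrophage share lay above that of the mesenchymal-like cells in library 1 (82.5 to 85.0% against 76.5 to 77.2%), library 3 (78.5 to 82.1% against 74.6 to 76.1%) and library 4 (89.6 to 93.9% against 77.0 to 78.4%), and overlapped it in library 2 (77.8 to 79.1% against 79.0 to 79.4%). The lymphoid intervals were wider, from 49.5 to 86.3% at their extremes. Pericyte-like cells, which express collagens of their own, were at 3.29 to 7.78%. Whether the Ptgds UMIs of border macrophage-like cells came from leptomeningeal RNA was not tested further.

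**Figure D3:**
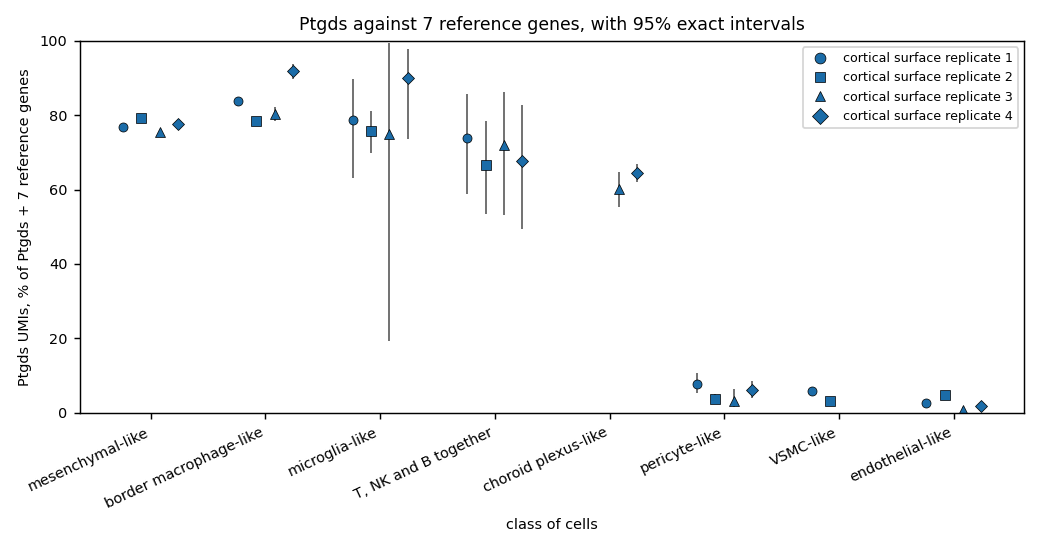
Ptgds UMIs as a percentage of the Ptgds UMIs plus those of 7 reference genes, by class and cortical surface library, with 95% exact binomial intervals. Mesenchymal-like, border macrophage-like and lymphoid cells lie between 66.7% and 91.9%, and pericyte-like cells under 8%.

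Cells of the central nervous system were few. Choroid plexus-like cells, an epithelium known to make Ptgds, stood at 940 and 999 CPM in cortical surface libraries 3 and 4 (35 and 98 cells) and at 1184 CPM in bone-associated library 1 (14 cells), with Ptgds at 60.1% and 64.5% of the Ptgds and reference UMIs in the former 2. The 16 oligodendrocyte-like cells, a class long known for Ptgds, held 10110 CPM when pooled, since no library had 10 of them. Their median cell gave 1.22% of its UMIs to Ptgds in library 2 (5 cells) and 0.634% in library 4 (8 cells). The unnamed cortical surface cluster led by H2-Eb1 stood at 320, 532, 175 and 223 CPM. Barcodes with at least 50% hemoglobin UMIs held 153 CPM of non-hemoglobin UMIs in library 3 and 427 CPM in library 4. These values were 8.24 (interval 5.40 to 13.2) and 41.1 (27.2 to 65.2) times the lymphoid level of those libraries. Erythroid-like cells, 52 and 63 in libraries 3 and 4, stood at 260 and 26.0 CPM of all their UMIs. The lymphoid level is thus not the highest that barcodes of unrelated kinds reached.

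Mesenchymal-like cells made up 10.6%, 11.1%, 2.65% and 0.954% of the kept cells of cortical surface libraries 1 to 4 and held 92.6%, 89.5%, 80.6% and 80.5% of the Ptgds UMIs in kept cells. The libraries with more of these cells were also those with more Ptgds in lymphoid cells. Libraries 3 and 4, with fewer, are the hemoglobin-rich ones, so these traits of the libraries cannot be told apart. The source of the lymphoid Ptgds was not tested.

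Hpgds, the hematopoietic prostaglandin D2 synthase, was a gene of macrophages and mast cells. In microglia-like cells it stood at 912, 636, 690 and 677 CPM in cortical surface libraries 1 to 4 (mean 729 ± 124, SD, n = 4). Border macrophage-like cells held 507, 408, 404 and 538 CPM on the cortical surface and 280 and 329 CPM in the bone-associated libraries. Mast cell-like cells, found in the bone-associated libraries, held 358 and 355 CPM. Microglia-like cells were highest among the named classes in every library that had them. Hpgds was lower in border macrophage-like than in microglia-like cells (log2 fold change -0.45, SE 0.10, adjusted p = 5.61e-04), a difference below the fold threshold. Between preparations, border macrophage-like cells did not pass (log2 fold change 0.43, SE 0.22, adjusted p = 0.273).

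Hpgds was found in most cells of these classes. Thinned to 1500 UMIs, 63.1% (59.4 to 66.7%) of microglia-like, 47.9% (43.9 to 51.8%) of cortical surface border macrophage-like and 38.6% (27.2 to 51.0%) of mast cell-like cells kept a Hpgds UMI, against 0.273% (0.00692 to 1.51%) of cortical surface T cell-like cells. Before thinning these shares were 95.9%, 83.0%, 77.8% and 2.45%, the mast cell-like cells having a median depth of 7503 UMIs. Among clusters of border macrophage-like cells Hpgds was lower in the low-UMI cluster, at 259 to 363 CPM, than in the Lyve1-led cluster, at 483 to 681 CPM. The H2-Eb1-led unnamed cluster held 97.0, 125, 104 and 98.6 CPM. A small unnamed cluster led by Mlxipl, with 15 cells in library 1 and 25 in library 4, held 1392 and 561 CPM.

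Ptgs1, the constitutive cyclooxygenase, followed Hpgds in microglia-like cells and parted from it elsewhere. Microglia-like cells stood at 623, 584, 650 and 636 CPM in cortical surface libraries 1 to 4 (mean 623 ± 28.5, SD, n = 4). Border macrophage-like cells stood at 145, 135, 121 and 148 CPM in the same libraries and at 123 and 95.6 CPM in the bone-associated ones. The groups of the cortical surface did not overlap, and Ptgs1 was lower in border macrophage-like cells (log2 fold change -1.99, SE 0.11, adjusted p = 3.27e-14). Between preparations these macrophages did not pass (log2 fold change 0.21, SE 0.20, adjusted p = 0.578). Both genes were found in 86.8%, 86.3%, 94.4% and 91.2% of microglia-like cells of libraries 1 to 4, in 71.6%, 72.4%, 26.5% and 32.9% of border macrophage-like cells of those libraries, and in 6.67% and 5.26% of mast cell-like cells of the bone-associated libraries. The lower macrophage shares of libraries 3 and 4 were those of the hemoglobin-rich libraries, whose kept cells had median depths of 5660 and 5453 UMIs against 9295 and 9525 in libraries 1 and 2. The microglia-like shares were not lower there. The 190, 221, 132 and 167 macrophages of libraries 1 to 4 held 2374094, 2680546, 586663 and 711720 UMIs. Their Ccl7-led cluster was found in libraries 1 and 2. The cause of the lower shares was not tested.

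Endothelial-like cells differed in Ptgs1 between the preparations. They stood at 12.7, 40.3, 31.7 and 19.8 CPM in cortical surface libraries 1 to 4 and at 203 and 213 CPM in the bone-associated libraries. No cortical surface library came near the bone-associated ones (log2 fold change -2.91, SE 0.27, adjusted p = 8.82e-07), and 3 of the 4 members tested passed in endothelial-like cells, against 6.79% of all genes. The bone-associated endothelial-like clusters held 235 CPM (led by Igfbp3, Gpihbp1 and Btnl9), 82.2 CPM (led by Slco1a4 and Spock2, genes of brain endothelium) and 311 CPM (led by Selp and Vwf, genes of veins). The cortical surface cluster with the most, led by Slc38a5 and Vwf, held 43.6 CPM. A bone-associated cluster led by Gkn3 stayed unnamed and outside the class, with Ptgs1 at 2.55 and 16.6 CPM. Its cortical surface counterpart led by Gkn3 is counted in the class, so the sides hold unlike clusters. Thinned to 1500 UMIs, 24.6% (20.6 to 28.8%) of bone-associated and 2.70% (1.49 to 4.49%) of cortical surface endothelial-like cells kept a Ptgs1 UMI, and before thinning 59.4% and 11.7%, at median depths of 7371 and 5154 UMIs. The log2 fold change was -2.86 without the hemoglobin-rich libraries and between -3.31 and -2.69 with any single library left out.

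In neutrophil-like cells Ptgs1 stood at 51.0 and 59.8 CPM in cortical surface libraries 3 and 4, and at 10.9 and 3.67 CPM in the bone-associated libraries, where each value was 1 UMI. Libraries 3 and 4 are the hemoglobin-rich ones, so preparation and those libraries cannot be told apart here. Ptgs1 passed the 10% detection filter through the cortical surface side only, so its direction is not independent of the filter. The call (log2 fold change 3.31, SE 0.84, adjusted p = 0.0132) was lost without bone-associated library 2 (adjusted p = 0.202), without cortical surface library 4 (adjusted p = 0.171) and without doublet removal (adjusted p = 0.172).

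Ptgs2, the inducible cyclooxygenase, was higher in the bone-associated libraries in each of the 5 classes where it was tested between preparations. In mesenchymal-, border macrophage- and pericyte-like cells it passed the 10% detection filter through the bone-associated side only. The shared direction of those classes is therefore not independent of the filter. Neutrophil-like cells stood at 448 and 536 CPM in bone-associated libraries 1 and 2 (10 and 42 cells) and at 45.9 and 78.7 CPM in cortical surface libraries 3 and 4 (26 and 73 cells). The cortical surface side thus consists of the hemoglobin-rich libraries alone, and preparation and those libraries cannot be told apart; the 7 such cells of cortical surface library 2, under the minimum of 10 cells, held 204 CPM. The groups did not overlap (log2 fold change -2.83, SE 0.43, adjusted p = 8.20e-05; -1.38, adjusted p = 0.0596, after thinning), and 2 of 3 members tested passed in neutrophil-like cells, against 6.96% of all genes. The bone-associated mean of 492 CPM became 309 CPM without doublet removal, 806 CPM with at least 1000 genes per cell and 939 CPM with up to 20% mitochondrial UMIs. A neighbouring unnamed cluster of 27 bone-associated cells, led by Slfn4, Acod1 and Stfa2l1, held 1363 and 1294 CPM. Thinned to 1500 UMIs, 44.2% (30.5 to 58.7%) of bone-associated and 14.2% (8.14 to 22.3%) of cortical surface neutrophil-like cells kept a Ptgs2 UMI, and 53.8% and 19.6% before thinning, at median depths of 5044 and 7134 UMIs.

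Among endothelial-like cells Ptgs2 stood at 226, 204, 39.6 and 68.0 CPM in cortical surface libraries 1 to 4 and at 507 and 420 CPM in the bone-associated libraries. Every bone-associated value was above every cortical surface one (log2 fold change -1.75, SE 0.35, adjusted p = 0.00197), with the hemoglobin-rich libraries 3 and 4 the lowest. The call was lost without those 2 libraries (log2 fold change -1.18, under the fold threshold), with DESeq2 (-1.81, adjusted p = 0.101) and after thinning (-1.27). Ptgs2 differed between endothelial-like clusters: the bone-associated Selp- and Vwf-led cluster stood at 1333 and 790 CPM, and the cortical surface Slc38a5- and Vwf-led cluster at 388, 402, 53.2 and 90.0 CPM. The bone-associated Slco1a4-led cluster stood at 512 and 861 CPM, whereas the Igfbp3-led cluster, the most numerous of the bone-associated endothelial-like clusters, had under 5 CPM. The bone-associated Gkn3-led cluster, unnamed and outside the class, stood at 0 and 3.83 CPM, while the cortical surface Gkn3-led cluster is counted in it.

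In pericyte-like cells, named by markers such as Abcc9 and Kcnj8, Ptgs2 was at 745 and 135 CPM in the bone-associated libraries, and no UMI was found in any of the 4 cortical surface libraries. The latter was at least 158-fold lower against a floor of 3 counts over the 248 cortical surface cells, or at least 48.5-fold lower than bone-associated library 2 alone. Without doublet removal the cortical surface mean was 6.13 CPM. All of the bone-associated UMIs came from a cluster led by Ccl11, Ccl19 and Vtn, at 901 and 194 CPM, and a single cell held 46.7% of those in library 1. The cortical surface cells of the unnamed clusters led by Ccl19 or Colec11, 245 in all, likewise held no Ptgs2 UMI. Both members tested passed between preparations in pericyte-like cells (12.6% of all genes), of which Ptgs2 was no longer tested once the Ccl11-led cluster was left out, and it fell short of the 10% detection filter after thinning, without doublet removal or with cells of up to 20% mitochondrial UMIs.

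The mesenchymal-like cells of the dura had more Ptgs2 than those of the leptomeninges. Bone-associated libraries stood at 62.1 and 74.6 CPM and cortical surface libraries 1 to 4 at 6.59, 6.72, 0 and 10.1 CPM, the last value resting on 1 UMI. The groups did not overlap (log2 fold change -3.43, SE 0.43, adjusted p = 6.08e-07). Without doublet removal the means moved from 68.4 to 107 CPM in the bone-associated and from 5.84 to 22.3 CPM in the cortical surface libraries, and the call was kept (-2.82, adjusted p = 0.00548). Border macrophage-like cells stood at 105 and 64.0 CPM in the bone-associated and at 14.3, 1.49, 6.82 and 0 CPM in the cortical surface libraries (log2 fold change -3.76, SE 0.64, adjusted p = 0.00482). Without bone-associated library 2, which leaves 16 bone-associated cells, the latter call was lost (adjusted p = 0.0704). Dendritic-like cells held 110 and 214 CPM in the bone-associated and 90.4, 65.7, 0 and 14.8 CPM in the cortical surface libraries.

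Other immediate-early genes moved with Ptgs2 in some classes and not in others. A list of 9 such genes (Fos, Fosb, Jun, Junb, Egr1, Atf3, Ier2, Ier3 and Dusp1), which tissue dissociation is known to induce, was summed per class and library. In mesenchymal-like cells the sum was 1129 to 1873 CPM on the cortical surface and 6602 to 7454 CPM in the bone-associated libraries, and 7 of the 9 genes were called lower on the cortical surface. In endothelial-like cells it was 1884 to 10866 against 13763 to 17023 CPM, with 4 of 9 called lower on the cortical surface, in pericyte-like cells 795 to 8662 against 18811 to 19382 CPM, with 8 of 9, and in neutrophil-like cells 2271 to 2719 against 4594 to 7367 CPM, with 3 of 9. In these 4 classes the sum thus ran the same way as Ptgs2. The unnamed cortical surface Ccl19- or Colec11-led cells, outside the pericyte-like class, had sums of 2901 to 19727 CPM.

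Border macrophage-like cells, by contrast, had sums of 7060 to 20911 CPM on the cortical surface and 7782 to 13895 CPM in the bone-associated libraries, with none of the 9 called, while Ptgs2 differed. VSMC-like cells had sums of 19148 to 29059 CPM with Ptgs2 at 0 and 9.26 CPM in cortical surface libraries 1 and 2 and 32.1 and 26.2 CPM in the bone-associated libraries. Mast cell-like cells had 41103 to 51164 CPM with Ptgs2 at 0 and 7.09 CPM. A high sum of these genes therefore went with high Ptgs2 in some classes only, as the plot of both measures shows. In the remaining comparisons, 2 of 8 genes were called lower on the cortical surface in T cell-like cells and 6 of 8 in B cell-like cells, 1 of 9 was called higher there in VSMC-like cells, 5 of 9 were higher in border macrophage-like than in microglia-like cells, and 3 of 9 were lower in pericyte-like than in VSMC-like cells. The part of dissociation in the Ptgs2 differences was not tested.

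**Figure D4:**
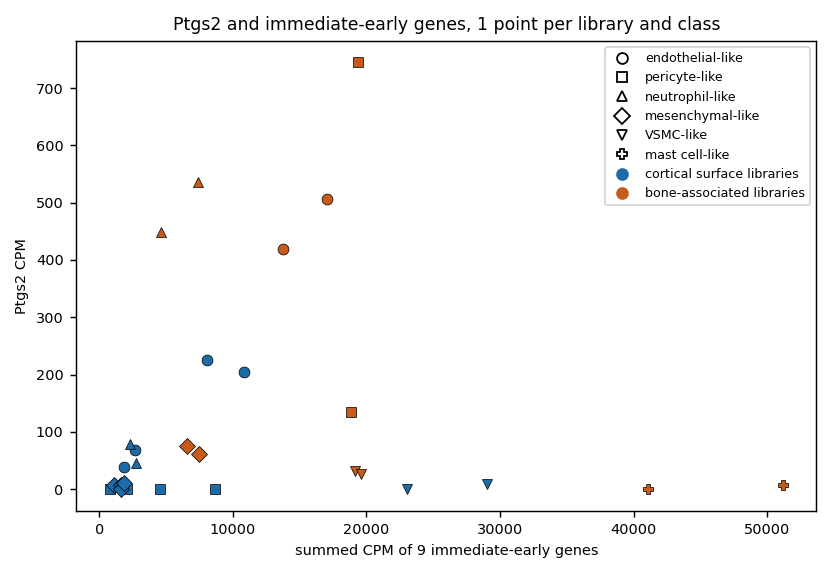
Ptgs2 CPM (y axis) against the summed CPM of 9 immediate-early genes (x axis), 1 point for each library with at least 10 cells of 6 classes (endothelial-, pericyte-, neutrophil-, mesenchymal-, VSMC- and mast cell-like). Bone-associated endothelial-like points lie at 13763 to 17023 CPM on the x axis and 420 to 507 CPM on the y axis, while mast cell-like points lie at 41103 to 51164 CPM and under 8 CPM.

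Ptges, the inducible prostaglandin E2 synthase, was a gene of mesenchymal-like cells in both preparations. It stood at 72.4, 68.6, 72.9 and 30.2 CPM in cortical surface libraries 1 to 4, the last value resting on 3 UMIs, and at 71.6 and 80.8 CPM in the bone-associated libraries. The ranges overlapped, and no difference passed the test (log2 fold change -0.19, SE 0.31, adjusted p = 0.786). The next level was that of cortical surface pericyte-like cells, at 6.44 to 26.0 CPM, followed by cortical surface endothelial-like cells at 5.28 to 17.4 CPM, whose ranges overlapped. Thinned to 1500 UMIs, 9.92% (6.52 to 14.3%) of cortical surface and 9.68% (6.47 to 13.8%) of bone-associated mesenchymal-like cells kept a Ptges UMI. Before thinning these were 37.4% and 53.2%, with the bone-associated cells the deeper ones. The 2 prostaglandin synthases Ptgds and Ptges were found together in 32.1%, 44.5%, 31.0% and 9.52% of the mesenchymal-like cells of cortical surface libraries 1 to 4. Nearly every such cell had Ptgds, so these shares follow those of Ptges alone, at 32.1%, 45.3%, 34.5% and 9.52%.

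Ptgis, the prostacyclin synthase, known from vessel walls, was highest in cortical surface VSMC-like cells. These stood at 318 and 350 CPM in cortical surface libraries 1 and 2, against 39.6 and 53.6 CPM in the bone-associated libraries. The groups were far apart (log2 fold change 2.72, SE 0.27, adjusted p = 1.05e-08), and Ptgds and Ptgis, the members tested in VSMC-like cells, both passed, against 6.33% of all genes. Thinned to 1500 UMIs, 33.3% (27.6 to 39.4%) of cortical surface and 6.74% (4.04 to 10.4%) of bone-associated VSMC-like cells kept a Ptgis UMI, and before thinning 79.1% and 16.7% did, at median depths of 12746 and 12027 UMIs. Pericyte-like cells, the neighbouring mural class, held 5.16, 11.5, 0 and 0 CPM on the cortical surface and 1.75 and 2.41 CPM in the bone-associated libraries. Ptgis was lower in pericyte-like than in VSMC-like cells of the same libraries (log2 fold change -5.19, SE 0.28, adjusted p = 5.24e-05), as 1 of 2 members tested, against 14.6% of all genes. In that comparison Ptgis passed the 10% detection filter through the VSMC-like side only.

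Mesenchymal-like cells showed the opposite order between preparations. Ptgis stood at 36.2, 56.0, 61.7 and 50.3 CPM in cortical surface libraries 1 to 4 and at 105 and 197 CPM in the bone-associated libraries. The ranges did not overlap (log2 fold change -1.60, SE 0.33, adjusted p = 5.81e-04), but the call was lost without bone-associated library 2 (-0.95, adjusted p = 0.153). Within the bone-associated cells, the cluster led by Comp, H19 and Matn4, genes of cartilage and bone matrix among them, held 139 and 239 CPM, and the cluster led by Apod, Dcn and Lum 30.2 and 88.9 CPM. Ptges and Ptgis were found together in 43.8% and 40.8% of bone-associated mesenchymal-like cells and in 0 to 11.7% of those of the cortical surface libraries. Singly, Ptges was found in 56.3% and 52.8% and Ptgis in 59.4% and 68.4% of the bone-associated cells. On the cortical surface these shares were 9.52 to 45.3% and 9.52 to 20.4%. The bone-associated cells were also the deeper ones, and these shares were not thinned.

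In endothelial-like cells Ptgis did not pass between preparations, at 34.3 to 60.2 CPM on the cortical surface against 44.1 and 54.0 CPM (log2 fold change 0.07, SE 0.25, adjusted p = 0.898). Behind this mean, the cortical surface cluster led by Gkn3, Cytl1 and Fbln5, which are known in arteries, held 145, 256 and 231 CPM in libraries 1, 2 and 4, and the Slc38a5-led cluster 23.6 to 60.8 CPM. That cluster of 79 cells is counted in the class, whereas a bone-associated Gkn3-led cluster of 143 cells stayed unnamed and outside it, with Ptgis at 5.10 and 33.2 CPM. Without the cortical surface Gkn3-led cluster the log2 fold change was -0.94.

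**Figure D5:**
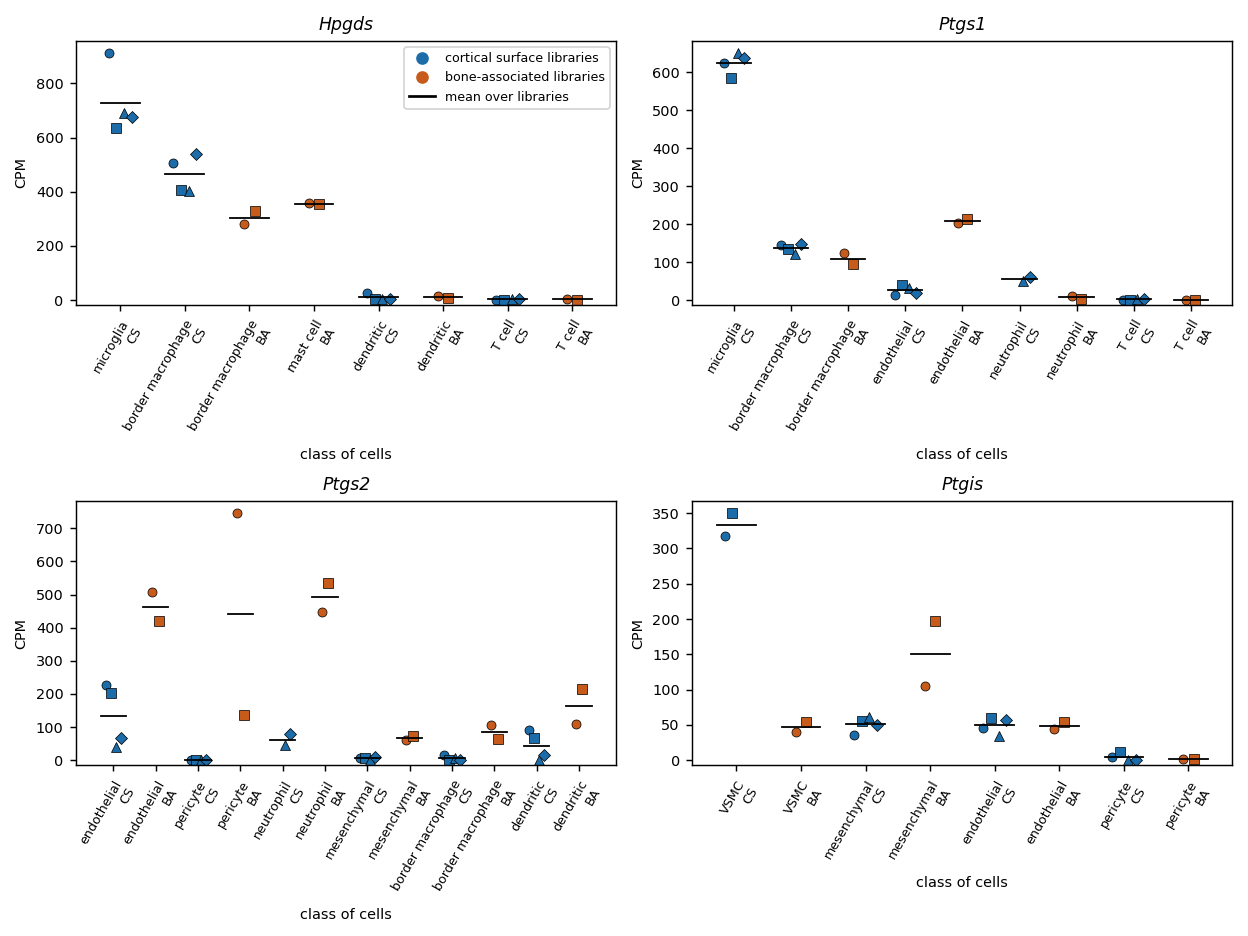
CPM of Hpgds, Ptgs1, Ptgs2 and Ptgis, 1 panel per gene, by class and preparation (CS, cortical surface; BA, bone-associated); each point is 1 library with at least 10 cells, lines are means over libraries, and axes start near 0. Ptgis in cortical surface VSMC-like cells (318 and 350 CPM) and Ptgs1 in bone-associated endothelial-like cells (203 and 213 CPM) stand clear of the same class in the other preparation.

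Ptger4, the prostaglandin E2 receptor, was spread over immune classes and some unnamed clusters. Among the latter, the bone-associated clusters led by Gkn3 and by Casq2 held 68.9 and 47.3 CPM and 58.2 and 28.6 CPM. Dendritic-like cells stood at 115, 116, 50.8 and 51.4 CPM in cortical surface libraries 1 to 4 and at 110 and 167 CPM in the bone-associated libraries. The H2-Eb1-led unnamed cluster held 121, 213, 106 and 83.6 CPM. Both had higher values in cortical surface libraries 1 and 2 than in the hemoglobin-rich 3 and 4. Border macrophage-like cells of the bone-associated libraries, at 87.5 and 124 CPM, and group 2 innate lymphoid-like cells of the same libraries, at 90.0 and 104 CPM, followed, and the ranges of these classes overlapped.

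Among macrophages, Ptger4 was higher in border macrophage-like than in microglia-like cells of each cortical surface library. The former stood at 64.9, 51.5, 17.0 and 26.7 CPM in cortical surface libraries 1 to 4, and the latter at 7.32, 3.64, 2.24 and 0.423 CPM, with a Ptger4 UMI in 1.01% of the cells. The difference within libraries was a log2 fold change of 4.13 (SE 0.37, adjusted p = 9.41e-10). Bone-associated border macrophage-like cells stood at 87.5 and 124 CPM, above all 4 cortical surface libraries (log2 fold change -1.52, SE 0.39, adjusted p = 0.0370). That call was lost without bone-associated library 1 (adjusted p = 0.0756), bone-associated library 2 (adjusted p = 0.407) or cortical surface library 4 (adjusted p = 0.0648), and without both hemoglobin-rich libraries the log2 fold change was -1.12, under the fold threshold. Different clusters make up the class in the 2 preparations, and on the cortical surface the Ccl7- and Hmox1-led cluster held 71.6 and 57.5 CPM against 6.86 to 27.0 CPM in the Lyve1-led cluster. T cell-like cells did not pass between preparations (log2 fold change -0.11, SE 0.37, adjusted p = 0.872), nor did neutrophil-like cells (log2 fold change -0.71, SE 0.80, adjusted p = 0.671).

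A list of 24 other genes of the pathway, in 4 groups (phospholipases A2, other synthases and reductases, transport and breakdown, receptors), was tested in the same fits. In mesenchymal-like cells 14 were tested, 1 was called higher and 4 lower on the cortical surface, against 15.1% of all genes called, with a median log2 fold change over the 14 of -0.14 against -0.03 over all genes tested. Hpgd, the enzyme that starts prostaglandin breakdown, stood at 8.23, 2.98, 72.9 and 0 CPM on the cortical surface and 298 and 241 CPM in the bone-associated libraries (log2 fold change -4.38, SE 0.57, adjusted p = 1.30e-06). Ptgfr, Ptgir and Ptger1, receptors for prostaglandins F2, I2 and E2, were lower on the cortical surface (log2 fold change -1.70 for Ptgfr and -2.53 for Ptger1), where Ptgir had no UMI. Ptgir thus passed the detection filter through the bone-associated side only. Ptgdr, a receptor for prostaglandin D2, was the gene called higher: it stood at 104, 99.2, 151 and 80.5 CPM on the cortical surface and 49.0 and 32.0 CPM in the bone-associated libraries (log2 fold change 1.54, SE 0.34, adjusted p = 0.00130). Leptomeningeal cells held more of both the Ptgds transcript and the transcript of this receptor than dural cells.

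In vascular classes the called genes were receptors and a transporter for the most part. Slco2a1, which carries prostaglandins into cells, stood at 33.5, 29.8, 29.0 and 31.8 CPM in cortical surface endothelial-like cells and at 245 and 208 CPM in bone-associated ones (log2 fold change -2.84, SE 0.19, adjusted p = 5.58e-08). Tbxa2r, the thromboxane receptor, was also lower there (-1.78), and these 2 of 9 were the calls in endothelial-like cells (6.79% of all genes). The bone-associated Gkn3-led cells, unnamed and outside the class, stood at a mean of 36.4 CPM of Slco2a1. In pericyte-like cells Tbxa2r ran the other way, at 248, 199, 142 and 167 CPM on the cortical surface against 36.7 and 42.6 CPM (log2 fold change 2.08, SE 0.28, adjusted p = 3.40e-06). With Ptgfr it was higher, and Ptger1, Ptger3 and Pla2g4a were lower, on the cortical surface, 5 of 14 tested (12.6% of all genes). The bone-associated pericyte-like cells include the Ccl11- and Ccl19-led cluster, whereas the cortical surface Ccl19- or Colec11-led cells stayed unnamed and outside the class. The 2 sides of these 5 calls thus hold unlike clusters, and the unnamed cells stood at a mean of 69.9 CPM of Tbxa2r. In VSMC-like cells Ptger3 alone of 11 was called, lower on the cortical surface (-3.97, with 6.33% of all genes called), and between pericyte- and VSMC-like cells Ptger1 alone of 11, higher in pericyte-like cells (2.92, with 14.6%).

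In macrophages, 2 of 10 tested were called between border macrophage- and microglia-like cells, against 16.6% of all genes. Pla2g2d, a secreted phospholipase A2, stood at 141, 166, 162 and 187 CPM in border macrophage-like cells and was at 3.66, 0, 0 and 0 CPM in microglia-like cells (log2 fold change 9.30, SE 0.38, adjusted p = 1.27e-16), and Fam213b, a prostamide and prostaglandin F synthase, was also higher (1.57). Pla2g2d passed the detection filter through the border macrophage-like side only. Hpgd stood at 582 to 757 CPM in border macrophage-like and 499 to 623 CPM in microglia-like cells and was not called. Tbxas1, the thromboxane synthase, stood at 143 to 201 CPM and 176 to 239 CPM in these classes and was not called either. Between preparations none of 10 was called in border macrophage-like cells and none of 6 in neutrophil-like cells. In T cell-like cells 1 of 5 was called (Tbxa2r, 1.43, with 8.61% of all genes called), and in B cell-like cells, where 0 of the 7 genes reached the detection filter and 8.34% of all genes were called, 2 of 4 were called: Ptges3 lower (-1.68) and Ptgr2 higher (1.37) on the cortical surface.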

How the data were processed

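The authors deposited, for each of the 6 libraries, raw UMI counts per gene and barcode, made with Cell Ranger (version 3 in the submitters' processing notes, 6.1.2 in the matrix headers) on the mouse build mm10. Their counts were not normalized, and filtering, clustering and class names here are rebuilt, so they may differ from those of the study. A barcode was kept if 500 or more genes were detected and mitochondrial UMIs made up no more than 10%, and 124 likely doublets (0.8% per 1000 barcodes, by simulated doublets) were left out. No correction for free RNA was made. Each preparation was clustered with scikit-learn 1.9.0 and leidenalg 0.10.2 (2000 variable genes, 30 components, 15 neighbours, Leiden resolution 1.5, with a second split of mixed clusters). Clusters were named "-like" from marker lists of 22 classes, without the 7 genes and the 24 other pathway genes, which also stayed out of the clustering; 1441 cells stayed unnamed. Stress or immune genes lead some named clusters, as given in the text.

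UMIs were summed per class and library, for libraries with at least 10 cells. A gene entered a test when more than 10% of the cells in one of the groups had a UMI. A gene rare in one group could thus enter only through the group where it was higher. The test was edgeR 4.0.16 (quasi-likelihood, TMM normalization, R 4.3.3). Calls, with the study's thresholds, needed a Benjamini-Hochberg adjusted p under 0.05, over all genes tested, and a log2 fold change of 1.3 or more in size. The library was a block in the comparisons of border macrophages with microglia and of pericytes with VSMCs, because both classes came from the same libraries. A p-value measures the spread between pooled libraries only. DESeq2 1.42.0, other filters, thinning to 1500 UMIs and leaving out libraries were alternatives. Those on single clusters and on the hemoglobin-rich libraries were chosen after seeing the data. The testing script was checked on simulated counts.

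The 7 genes, the pathway, immediate-early and reference lists and the comparisons were chosen with earlier results of these data known. The rule names the 7 genes always, other pathway genes where called (and Hpgd and Tbxas1 in macrophages by choice after their values were seen), and for each of the 7 the 3 genes with the most similar levels.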

Additional observations from a re-analysis of the deposited data

Results flagged for a closer look

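Among 48 sets of 4 libraries, 7 had a highest or lowest cortical surface library that stood apart from the other 3 by Dixon's criterion, which chance alone meets in about 1 of 20 sets. That rate does not apply to 5 of the 7, where 3 libraries had no UMI and any value in the fourth meets the criterion. Most rest on few UMIs. Ptges in mesenchymal-like cells was 30.2 CPM in library 4 (3 UMIs in 21 cells), below the 68.6 to 72.9 CPM of the other 3. Hpgds in dendritic-like cells was 27.8 CPM in library 1 (8 UMIs in 15 cells), and Ptgs2 in microglia-like cells was 12.7 CPM in library 2 (14 UMIs), with no UMI in the other 3 libraries. Values of 2 UMIs each, in classes without a UMI in the other 3 cortical surface libraries, were Ptges and Ptgis in dendritic-like cells of library 2 (5.26 CPM each), Ptgis in NK cell-like cells of library 4 (3.45 CPM) and Ptger4 in pericyte-like cells of library 2 (5.77 CPM).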

How the results depend on the processing

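Of 432 recomputed log2 fold changes of the 7 members, 421 kept their direction and 403 also their side of the thresholds. Of 29 tested pairs of gene and comparison, 17 did so under every alternative in which the gene was tested. Alternatives in which a gene fell below the detection filter are not counted here, although a call was lost in some, as for Ptgs2 in pericyte-like cells. The 11 reversals concerned values not called. Ptgis in endothelial-like cells turned to -0.94 and -0.81 without the Gkn3-led and the Igfbp3-led cluster, and leaving out single libraries gave -0.094 to 0.31. Ptger4 turned to 0.53 when 1000 genes per cell were required and 2.46 with up to 20% mitochondrial UMIs in neutrophil-like cells, and ranged from -0.56 to 0.39 in T cell-like cells with single libraries left out. Ptgs1 in mesenchymal-like cells ranged from -1.04 to 0.036 likewise, and Ptgds in pericyte- against VSMC-like cells was -0.030 with up to 20% mitochondrial UMIs. The cause was not tested.

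Counts of members called moved by more than 1.5 times as follows. Without the detection filter they were 2 in pericyte- against VSMC-like cells, 4 in pericyte-like, 4 in VSMC-like and 2 in T cell-like cells between preparations. In pericyte-like cells the count was 1 with up to 20% mitochondrial UMIs, without doublet removal, after thinning and without the Ccl11- and Ccl19-led cluster. After thinning it was 1 in VSMC-like cells, 0 in T cell-like cells and 0 in neutrophil-like cells, and in the latter 1 with DESeq2 and 1 without doublet removal. With single libraries left out the counts were 1 to 3 in border macrophage-like, 0 to 1 in T cell-like and 1 to 2 in neutrophil-like cells.

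Over all genes, thinning, which leaves fewer UMIs to test, lowered the calls to 566 of 1435 (mesenchymal-like), 646 of 1248 (border macrophages against microglia), 604 of 1207 (pericytes against VSMCs), 271 of 523 (endothelial-like), 385 of 997 (pericyte-like), 141 of 528 (VSMC-like), 158 of 502 (border macrophage-like), 206 of 495 (T cell-like), 180 of 420 (B cell-like) and 138 of 345 (neutrophil-like). Other settings gave 2285 without the detection filter for border macrophages against microglia, 528 (up to 20% mitochondrial UMIs), 614 (no doublet removal) and 397 (no Ccl19-led cluster) in pericyte-like cells, and 323 and 166 in T cell-like cells with DESeq2 and without the hemoglobin-rich libraries. They gave 177 with DESeq2 in B cell-like cells and 186 with DESeq2, 546 when 1000 genes were required and 808 with up to 20% mitochondrial UMIs in neutrophil-like cells. Leaving out single libraries gave 246 to 532 in border macrophage-like, 302 to 560 in T cell-like, 198 to 621 in B cell-like and 108 to 477 in neutrophil-like cells.

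The preparations share only replicate numbers 1 and 2, which the labels tie to no batch. With the number as a replicate block, 242 genes were called in T cell-like cells, and Ptgs2 in endothelial-like cells (-1.18) and Ptger4 in border macrophage-like cells (-1.14) fell under the fold threshold; no other member's call changed. Depth limits the rare classes most, where values of 1 to 3 UMIs are common.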

Other observations

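For each of the 7 genes, the genes with the most similar levels were sought among 8593 genes, by Pearson's r of log2(CPM + 10) over 30 class means. The means share libraries, so these values are a description only. Ptgds was closest to Dcdc2a (r = 0.87), Igfbp2 (0.84) and Slc13a4 (0.84), Hpgds to Npl (0.89), Plau (0.87) and Tmem144 (0.85), and Ptgs1 to Slco2b1 (0.82), Ang (0.82) and Slc40a1 (0.82). Ptgs2 had the weakest first neighbour with Acvrl1 (0.82), followed by Tnfaip2 (0.72) and Tgm2 (0.70). Ptges was closest to Ptgfr, a receptor of the same pathway (0.95), then Gxylt2 (0.93) and Cthrc1 (0.91), Ptgis to Wfdc1 (0.91), Mn1 (0.90) and Synm (0.84), and Ptger4 to Batf (0.84), Gpr132 (0.83) and Sema4a (0.82).

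T cell-like cells held Ptgs2 in a single library. No UMI was found in cortical surface libraries 1 to 4 or in bone-associated library 1, and bone-associated library 2 held 54.5 CPM (127 UMIs in 348 cells). All but 1 of these UMIs lay in the cluster led by Trdc, Cd163l1 and Tcrg-C1, genes of gamma delta T cells, at 145 CPM. That cluster had no Ptgs2 UMI in bone-associated library 1.

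Schwann-like cells, found in the bone-associated libraries, held Ptgds at 111 CPM in library 1 (10 UMIs in 16 cells) and at 0 in library 2 (70 cells). Ptger3, another prostaglandin E2 receptor, was highest in an unnamed bone-associated cluster led by Dlk1, at 64.3 and 74.8 CPM, and Ptgir, the prostacyclin receptor, in bone-associated group 2 innate lymphoid-like cells, at 117 and 133 CPM.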
